A study of Mus musculus with 42 samples.

Results

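Cells with bright and with dim Lgr5 reporter fluorescence, sorted from the pylorus of Lgr5-EGFP-DTR mice, were compared by the sample titles: 3 Lgr5Hi arrays against 3 Lgr5Lo arrays, 6 of the 42 arrays of the series. The comparison covered 22180 genes, each measured by a probe set with 1 gene symbol. The remaining gate of the same line, Lgr5Neg (3 arrays), entered the same fit and is given beside the results where the order of the gates is described. The equally named gates of the other reporter line, Lgr5-EGFP-IRES-CreERT2 (4 Lgr5Hi and 4 Lgr5Lo arrays), were used for a test of whether the difference depends on the line.

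The mice were healthy, untreated adults of at least 7 to 8 weeks and were not selected by sex. In the DTR line the Lgr5 locus drives EGFP and the diphtheria toxin receptor. No toxin was given, so the receptor marks these cells without removing them. In the IRES line the same locus drives EGFP and a tamoxifen-inducible Cre recombinase, a knock-in known for patchy expression in the gut. Pyloric glands were freed with EDTA, digested to single cells and sorted, and the small RNA yields were amplified before labelling. How many mice went into a sample and where the fluorescence gates lay is not given in the sources used here. The labels call the DTR Lgr5Hi cells stem cells, the Lgr5Lo cells progenitors and the Lgr5Neg cells differentiated, whereas the Lgr5Lo cells of the IRES line are called differentiated. One characteristics field of the 9 DTR arrays names the IRES line, against their titles and descriptions, and the titles were followed.

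Pyloric glands are short tubes that open into surface pits. Their base holds Lgr5+ cells, which express a receptor for R-spondins, the amplifiers of Wnt signalling, together with mucous cells that secrete Muc6 and Tff2. Dividing cells lie above the base, and pit cells, which secrete Muc5ac, Tff1 and gastrokines, line the top. Scattered among them are hormone-secreting enteroendocrine cells and tuft cells, chemosensory cells that use taste-receptor signalling, make leukotrienes and prostaglandins, and depend on the transcription factor Pou2f3.

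All levels below are log2 intensities on the scale of the deposited table. Differences are Lgr5Hi minus Lgr5Lo, 3 arrays against 3, in log2 units. Their standard error and adjusted p come from a limma fit over all 9 DTR arrays, in which Lgr5Neg shares the estimate of the spread. A gene was called when its adjusted p was below 0.05. The median over the genes of each DTR array lay between 4.31 and 4.40. Where the lower group sits at or below that, the difference may be a lower bound, which was not tested. Since each sample is a mixture of cells, fewer cells of a type and less RNA per cell cannot be told apart. Lgr5Hi array 1 correlated with the other bright arrays at 0.980 and 0.981, against 0.987 between those, and had the lowest quality weight of the 9 (0.45, the others 0.80 to 1.93). Xist lay between 2.65 and 3.39 on all 9 arrays.

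Lgr5 stood at 8.73, 8.66 and 8.81 on the Lgr5Hi arrays, at 6.82, 6.80 and 6.15 on the Lgr5Lo arrays and at 4.41, 4.51 and 4.87 on the Lgr5Neg arrays. The 3 gates did not overlap, and the bright cells were 4.41-fold above the dim ones (difference 2.14 ± 0.19, adjusted p = 0.000128). This gene was the basis of the sort and is no finding.

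Of the 22180 genes, 1102 (4.97%) were called, 449 higher (2.02%) and 653 lower (2.94%) in the bright cells. The median difference over all genes was 0.01. Among the called genes 108 were at least 2-fold higher and 261 at least 2-fold lower, together 1.66% of the genes tested. Without overlap between the 6 arrays were 1098 of the called genes, against 4907 (22.1%) of all genes. By its mean, Lgr5Neg lay below both other gates in 366 of the 449 called higher and above both in 597 of the 653 called lower. This order of means was not tested, and the share over all genes was not counted. Of 54 mitosis and 43 replication genes, described below, 0 were called between dim and negative cells. Against the negative gate 4062 genes (18.3%) were called for the bright and 488 (2.2%) for the dim cells, in comparisons that share these arrays. The count of calls was 732 without Lgr5Hi array 1, 438 without Lgr5Lo array 2 and 325 without Lgr5Lo array 3.

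**Figure D1:**
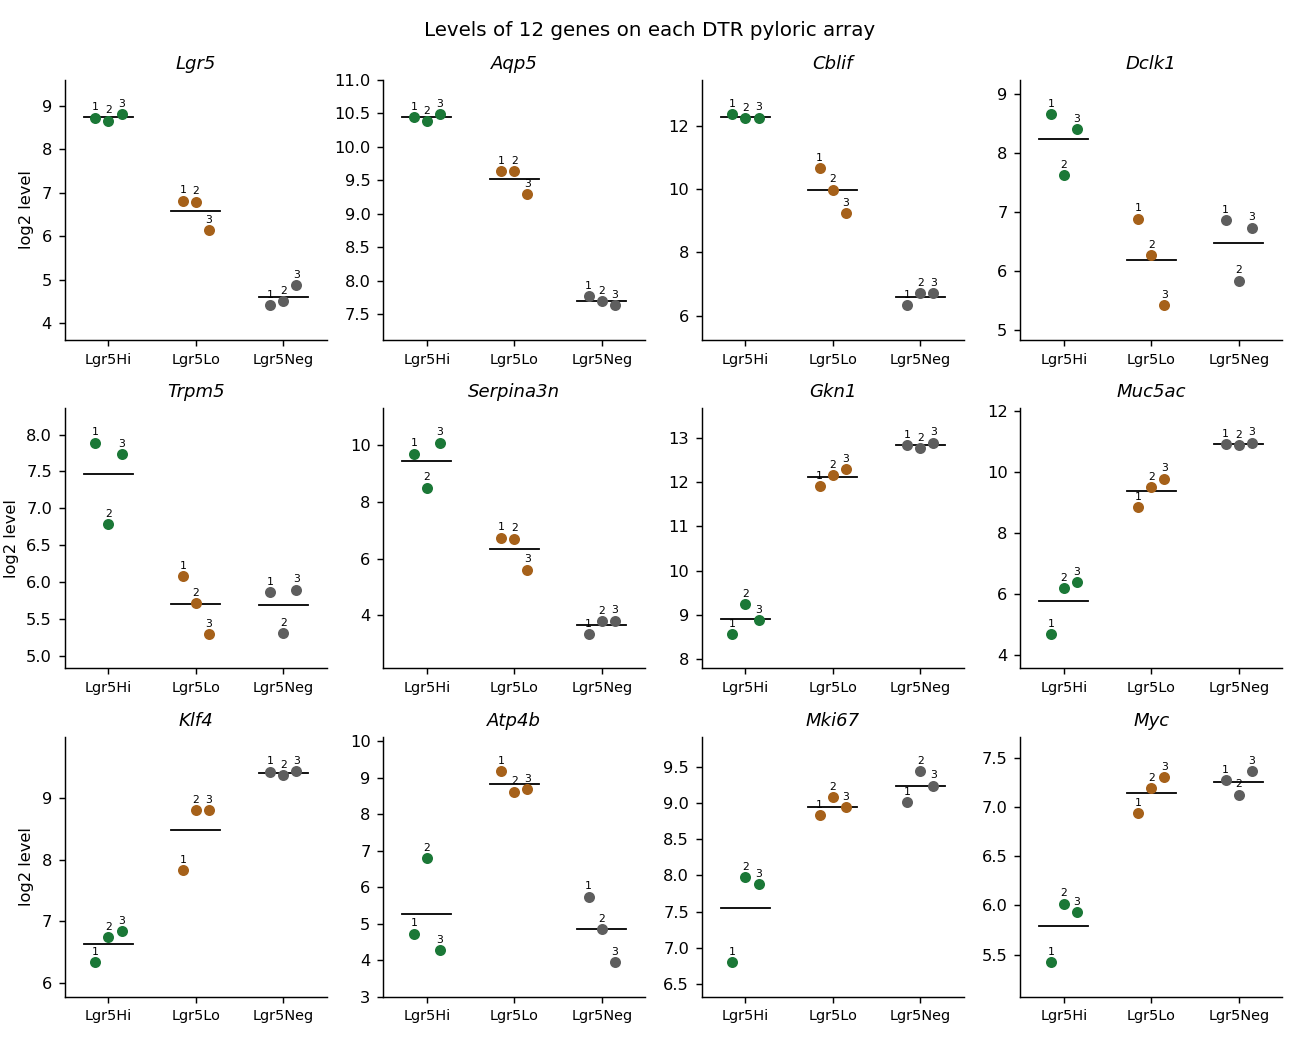
Log2 level of 12 genes (vertical axes, each with its own range) on the 9 DTR pyloric arrays; points are arrays with their replicate number, and the bar is the mean of 3 arrays. Lgr5, Aqp5 and Cblif fell stepwise from Lgr5Hi to Lgr5Neg, Gkn1, Muc5ac and Klf4 rose stepwise, Dclk1 and Trpm5 were high in Lgr5Hi alone, Mki67 and Myc were low in Lgr5Hi alone, and Atp4b peaked in Lgr5Lo.

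From a list of 21 Wnt targets, 8 rose, 1 fell and 12 were not called, with a median difference of 0.49. Lgr5, on which the cells were sorted, is among the 8. Nkd1, a feedback inhibitor of the pathway, stood at 5.63, 6.46 and 6.42 on the Lgr5Hi arrays and at 4.33, 5.08 and 4.70 on the Lgr5Lo arrays. The groups did not overlap, and the difference was 1.46 ± 0.23 (adjusted p = 0.004). Notum, a secreted enzyme that inactivates Wnt ligands, rose by 0.91 ± 0.16 from Lgr5Lo levels of 4.22 to 4.48. Apcdd1, another inhibitor, rose by 0.88 ± 0.17, Znrf3, which removes Wnt receptors from the membrane, by 0.80 ± 0.17, and Axin2, the classical target, by 0.59 ± 0.13. Thus 5 of the 8 that rose encode negative feedback regulators, and the remaining 3 were Lgr5 itself, Sox9 and Tnfrsf19. The list member that fell was Myc, described with the dividing cells below. Cd44, a further target, differed by 0.49 and was not called (adjusted p = 0.0794). The 9 calls of the list became 4 without Lgr5Lo array 2 and 5 without Lgr5Lo array 3, and 2 in the fit over all 42 arrays.

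Of 21 genes known from intestinal stem cells, 8 rose and 0 fell, and the sort gene Lgr5 is among the 8 here too. Smoc2, a secreted matrix protein, read 7.98 or more on each bright array against 6.51, 6.27 and 6.28 on the dim ones, a 4.23-fold difference with no overlap (2.08 ± 0.27, adjusted p = 0.00144). Lrig1, a brake on EGF receptors that marks stem cells in several epithelia, rose by 0.86 ± 0.17, Hopx by 0.83 ± 0.18, and the chloride importer Slc12a2 by 0.59 ± 0.13. On the list of 17 gastric stem and progenitor genes 7 rose and 0 fell, and every one of these (Lgr5, Aqp5, Bhlha15, Lrig1, Tnfrsf19, Axin2 and Sox9) also stands on another list described here, with Lgr5 again the sort gene. Aqp5, a water channel by which other samples of the series were sorted, was at 10.45, 10.39 and 10.49 in the bright cells, 9.64, 9.64 and 9.29 in the dim cells and 7.77, 7.69 and 7.63 in the negative cells. It was 1.89-fold higher in bright than dim cells (0.92 ± 0.14, adjusted p = 0.00259). In the dim cells it was still 1.83 above the negative cells (adjusted p = 3.49e-05). The intestinal and gastric counts of rises were 5 and 4 without Lgr5Hi array 3, and 4 and 3 without Lgr5Lo array 2. They were 3 and 2 without Lgr5Lo array 3, and 2 and 1 in the fit over all 42 arrays. Without Lgr5Hi array 3, 1 gastric list gene was also called lower. Without Lgr5Lo array 1 the gastric count was 4.

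Genes of the gland base were examined next. Of 10 gland mucous cell genes, 6 rose and 0 fell (median 0.66): Aqp5, A4gnt, Creb3l4, Bhlha15, Spdef and Creb3l1. A4gnt, the enzyme that caps gland mucin with the sugar recognised as the marker of these cells, stood at 10.89, 11.01 and 10.57 in bright and at 10.14, 9.91 and 9.67 in dim cells (0.91 ± 0.17, adjusted p = 0.0088). Spdef, Creb3l1, Creb3l4 and Bhlha15 are transcription factors of secretory cells and rose by 0.62 to 0.75. The secreted products themselves were near the top of the scale in both gates. Tff2 lay between 12.98 and 13.02 in bright and between 12.87 and 13.01 in dim cells, with a 95% interval of the difference from -0.20 to 0.33, and Muc6, Gkn3 and Pgc differed by 0.47, 0.31 and 0.16 without a call. In Lgr5Neg cells Muc6 was 9.44, 10.29 and 8.81, so that transcript separated the negative gate from both others. Only 1 of the 6 calls was made without Lgr5Lo array 3, 2 without Lgr5Lo array 2, and 0 in the fit over all 42 arrays.

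Of 6 chief cell genes 3 rose and 0 fell, and 1 of the 3, Bhlha15, is also on the gland mucous list. Cblif, which encodes gastric intrinsic factor and in mice is made by chief cells, stood at 12.38, 12.25 and 12.27 in bright, 10.68, 9.99 and 9.25 in dim and 6.32, 6.72 and 6.72 in negative cells. All 3 gates were separate, and bright exceeded dim cells 5.01-fold (2.32 ± 0.27, adjusted p = 0.000832). Pga5, a pepsinogen, rose by 1.56 ± 0.26 and Bhlha15 by 0.75 ± 0.20. In the fit over all 42 arrays 0 of the list were called. Chia1, a chitinase of chief cells, went with single arrays and not with the gate, at 3.84, 3.59 and 9.60 in bright and 6.11, 7.66 and 3.70 in dim cells (adjusted p = 0.973).

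Of 39 genes for protein folding and the secretory pathway 4 rose and 0 fell, with a list median of 0.17. Dnajb9, a chaperone cofactor of the endoplasmic reticulum, rose by 1.08 ± 0.16 (adjusted p = 0.00257) and Xbp1, the transcription factor that expands that compartment, by 0.59 ± 0.14, beside Creb3l1 and Creb3l4. The count was 2 without Lgr5Hi array 2, 1 without Lgr5Lo array 2 or array 3, and 0 in the fit over all 42 arrays. Among 18 secreted defence genes 4 rose and 1 fell. The largest rise of all called genes was Serpina3n, a protease inhibitor, at 9.69, 8.50 and 10.08 in bright and 6.74, 6.70 and 5.61 in dim cells. The groups did not overlap, and the difference of 3.07 ± 0.37 was 8.41-fold (adjusted p = 0.00103). In negative cells Serpina3n lay at 3.35 to 3.82, below the array medians. Pigr, which carries immunoglobulin A across epithelium, rose by 1.05 ± 0.13, the chemokine Cxcl15 by 1.64 ± 0.23 and the lectin Reg3g by 1.85 ± 0.41. Dmbt1, a scavenger-receptor mucin, went the other way, with 5.80, 7.10 and 7.35 in bright against 8.77, 9.52 and 9.30 in dim cells (-2.44 ± 0.33).

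Further genes among the 15 largest rises had varied roles. Cacna2d1, an auxiliary subunit of calcium channels, read 9.43, 9.07 and 8.65 in bright, 7.24, 6.91 and 6.91 in dim and 5.48, 5.76 and 5.26 in negative cells. It was the 1 of 15 calcium channel genes that was called, 4.09-fold up (2.03 ± 0.20, adjusted p = 0.000244). Shisa6, a transmembrane protein, rose by 2.15 ± 0.22 from dim levels below the array medians, and the lipase-related Pnliprp2 by 2.14 ± 0.27. Cckar, the receptor for cholecystokinin, was 4.35-fold higher, with bright arrays at 7.42, 6.22 and 6.99 and dim arrays at 5.56, 4.33 and 4.37. Clec4a1, a lectin receptor known from myeloid cells, was at 4.97, 4.05 and 5.31 in bright cells and between 2.51 and 2.72 in dim cells. Its 4.49-fold difference may therefore be a lower bound.

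**Figure D2:**
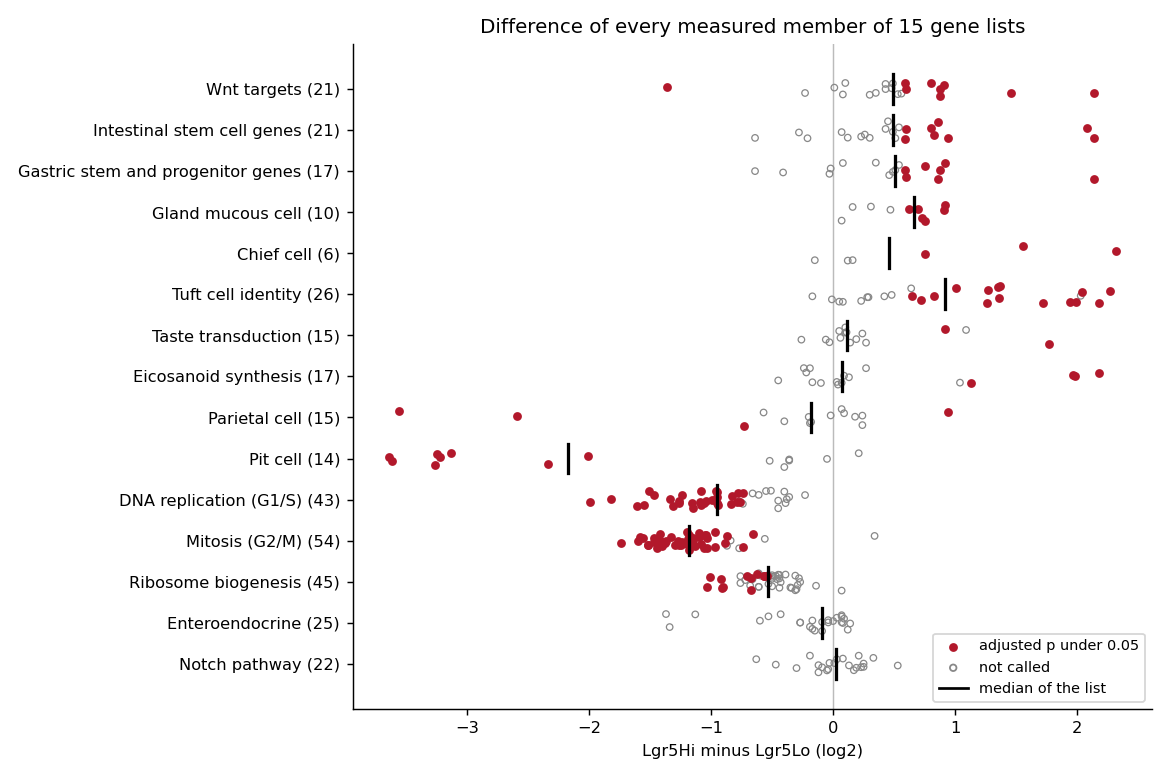
Lgr5Hi minus Lgr5Lo difference (horizontal axis, log2) of every measured member of 15 gene lists, with the number measured in brackets; filled points passed an adjusted p of 0.05, open points did not, and the bar is the list's median. Pit cell genes reach the lowest values, mitosis genes lie almost wholly below 0, and tuft cell genes almost wholly above it.

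Of 26 tuft identity genes 15 rose and 0 fell, by 0.65 to 2.27, and the median of the list was 0.92. Dclk1, a kinase and the common tuft cell marker, stood at 8.65, 7.62 and 8.40 in bright, 6.88, 6.26 and 5.41 in dim and 6.85, 5.83 and 6.73 in negative cells. The bright arrays lay above all dim and negative ones, while dim and negative overlapped, and bright exceeded dim cells 4.12-fold (2.04 ± 0.36, adjusted p = 0.00751). Pou2f3, the master regulator, was 6.12, 5.85 and 6.58 in bright against 4.57, 4.55 and 4.28 in dim cells (1.72 ± 0.22, adjusted p = 0.00147). Spib, an ETS transcription factor, rose by 2.27 ± 0.44, the adaptors Sh2d6 and Sh2d7 by 2.18 ± 0.44 and 1.99 ± 0.37, Gfi1b, a zinc finger factor, by 0.83 ± 0.19, and Bmx, a tyrosine kinase, by 1.36 ± 0.22.

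From 15 genes of taste transduction only Trpm5, the cation channel that depolarises the cell, and Plcb2, the phospholipase upstream of it, were called. Trpm5 was 7.89, 6.79 and 7.73 in bright, 6.08, 5.72 and 5.30 in dim and 5.87, 5.31 and 5.90 in negative cells (1.77 ± 0.28, adjusted p = 0.00387). Gnat3, the taste G protein, overlapped between the gates, at 7.78, 6.47 and 6.39 against 6.50, 5.58 and 5.27, and was not called (adjusted p = 0.169). The leukotriene enzymes rose as well. Alox5 was at 9.20, 7.55 and 9.12 in bright and 6.89, 6.72 and 5.72 in dim cells (2.18 ± 0.45, adjusted p = 0.0155). Its partner Alox5ap rose by 1.97 ± 0.41, Ltc4s, which makes leukotriene C4, by 1.13 ± 0.25, and the prostaglandin D synthase Hpgds by 1.98 ± 0.37, the 4 called of 17 eicosanoid genes. In an alternative fit, trended and robust, 2 of that list rose and 1 fell, and neither Alox5 nor Alox5ap was called. With dim genes left out 4 rose and 1 fell. Of the eicosanoid list 0 were called without Lgr5Lo array 3, 2 without Lgr5Hi array 1 or array 3, and 1 in the fit over all 42 arrays. Of the taste list 1 was called in that fit and without Lgr5Hi array 1, Lgr5Hi array 3, Lgr5Lo array 2 or Lgr5Lo array 3. Not all tuft cell genes moved. Rgs13 reached 2.03 with an adjusted p of 0.054, and Avil and Chat differed by -0.01 and 0.05, Avil with a 95% interval from -0.39 to 0.37.

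The tuft list also differed between arrays of the same gate. Whether its genes varied together was not tested. The mean level of the 26 genes was 6.37, 5.94 and 6.60 on Lgr5Hi arrays 1 to 3, 5.53, 5.38 and 4.96 on the Lgr5Lo arrays and 5.62, 5.18 and 5.66 on the Lgr5Neg arrays. Every bright array lay above every dim and negative array, and dim and negative arrays overlapped. Without Lgr5Lo array 3 the number called fell from 15 to 4, without Lgr5Hi array 1 to 9, and without Lgr5Hi array 3 to 11. In the fit over all 42 arrays 2 were called, and Dclk1 and Pou2f3 had adjusted p of 0.0641 and 0.0609. Markers of immune cells did not rise as lists. Of 10 lymphoid genes 0 were called, of 14 myeloid genes 2 fell (Cd68 and Cd14) and 0 rose, and the mast cell genes Cpa3 and Fcer1a stayed at or below 2.76 and 2.21 on all 9 arrays, while Kit rose by 0.92 ± 0.24 and Mcpt2, a mast cell protease, changed by -1.20. The part of tuft cells among the sorted bright cells was not tested.

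**Figure D3:**
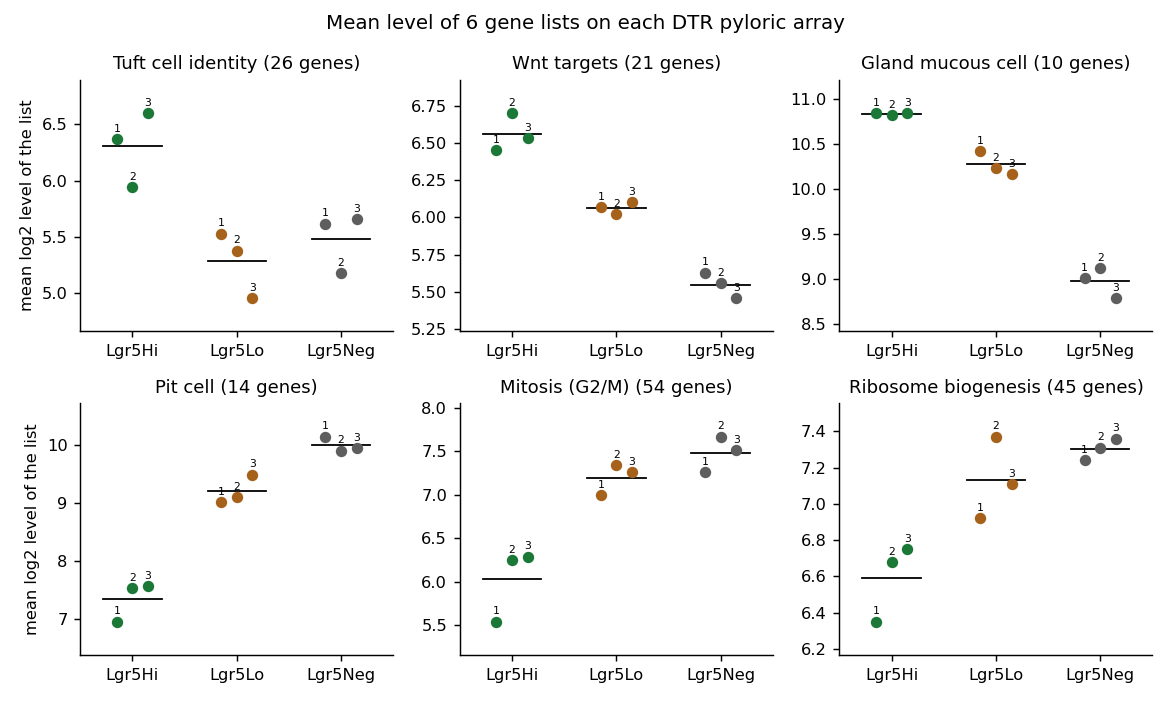
Mean log2 level (vertical axes, each with its own range) of 6 gene lists on the 9 DTR pyloric arrays; points are arrays with their replicate number and bars are means of 3 arrays. Tuft genes are highest in Lgr5Hi with Lgr5Lo and Lgr5Neg overlapping, Wnt and gland genes step down and pit genes step up from Lgr5Hi to Lgr5Neg, and Lgr5Hi array 1 is the lowest array for pit, mitosis and ribosome biogenesis genes.

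Genes of dividing cells were lower in the bright gate than in the dim gate. Of 54 mitosis genes 49 fell and 0 rose (median -1.18), and of 43 genes for DNA replication 30 fell and 0 rose (median -0.95). Mki67, the usual proliferation marker, was 6.80, 7.98 and 7.88 in bright, 8.83, 9.08 and 8.94 in dim and 9.01, 9.44 and 9.24 in negative cells. The bright arrays were below all 6 others, and the difference was -1.40 ± 0.25 (adjusted p = 0.00862). The dim and negative gates were close to each other, with a list median of -0.28 for mitosis genes (dim minus negative).

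Because so many mitotic genes moved together, the promoters of the 3 with the smallest p that hold the cell cycle genes homology region (CHR) are shown. This element binds the DREAM and MuvB complexes, which silence mitotic genes outside division and switch them on within it. Each stretch runs from 140 bases before to 30 after the gene start, 5′ to 3′, from RefSeq on GRCm38.p6, with the CHR letters (TTTGAA or its reverse TTCAAA) in capitals. They are Cdca8 (chr4:124936888-124937057, minus strand), a part of the chromosomal passenger complex, Ttk (chr9:83834549-83834718, plus strand), a spindle checkpoint kinase, and Cenpa (chr5:30666746-30666915, plus strand), the histone of centromeres.
Cdca8: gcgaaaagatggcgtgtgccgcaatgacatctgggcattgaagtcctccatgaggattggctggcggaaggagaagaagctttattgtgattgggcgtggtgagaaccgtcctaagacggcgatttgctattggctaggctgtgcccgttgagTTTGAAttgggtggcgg
Ttk: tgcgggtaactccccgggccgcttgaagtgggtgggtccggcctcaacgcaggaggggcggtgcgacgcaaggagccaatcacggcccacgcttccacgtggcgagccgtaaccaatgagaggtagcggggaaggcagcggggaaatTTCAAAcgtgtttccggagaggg
Cenpa: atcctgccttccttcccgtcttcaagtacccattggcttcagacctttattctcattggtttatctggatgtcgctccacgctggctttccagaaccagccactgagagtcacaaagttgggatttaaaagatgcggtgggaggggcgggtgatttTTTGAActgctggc
The match begins at base 14, 8 and 17, counted from the first base after the start. Ttk was 4.38, 5.58 and 5.13 in bright against 6.70, 6.91 and 6.71 in dim cells (-1.74 ± 0.25), and Cdca8 and Cenpa changed by -1.20 and -1.18 (SE 0.17 each).

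Across the 300-base windows, 250 before to 50 after the start, a CHR match on either strand was present in 31 of the 42 called mitosis genes with a promoter in the table (73.8%), and in 2690 of 16990 genes on the array with one (15.8%). Between 50 bases before and 30 after the start it was present in 21 of the 42 (50%) and in 3.5% of all. A CCAAT box (CCAAT or ATTGG) was present in 30 of the 42 (71.4%), against 38.5% of all. The replication genes carried a different motif, the E2F site (TTCCCGC or TTGGCGC on either strand), in 15 of 26 called members with a promoter (57.7%), against 8.93% of all genes and 14.3% of the called mitosis genes. The whole lists, called or not, held the motifs too. For mitosis genes CHR was present in 33 of 46 (71.7%), near the start in 50%, and CCAAT in 71.7%. For replication genes E2F was present in 18 of 37 (48.6%). These shares describe the lists, and a link between motif and fall was not tested. A reverse CCAAT box can overlap an E2F site, and such letters then count under both. Such a match is a run of letters and no evidence of binding in these cells.

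The E2F matches are shown for the 3 replication genes with the smallest p that hold one in the printed stretch, in the same window and style. They are Rrm1 (chr7:102441555-102441724, plus strand), the large subunit of ribonucleotide reductase, Hells (chr19:38930850-38931019, plus strand), a chromatin remodeller, and Cdc6 (chr11:98908011-98908180, plus strand), which loads the replicative helicase. Capitals mark TTCCCGC or its reverse complement GCGGGAA.
Rrm1: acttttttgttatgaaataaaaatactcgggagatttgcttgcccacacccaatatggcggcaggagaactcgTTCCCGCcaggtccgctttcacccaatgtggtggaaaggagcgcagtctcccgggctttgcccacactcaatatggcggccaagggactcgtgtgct
Hells: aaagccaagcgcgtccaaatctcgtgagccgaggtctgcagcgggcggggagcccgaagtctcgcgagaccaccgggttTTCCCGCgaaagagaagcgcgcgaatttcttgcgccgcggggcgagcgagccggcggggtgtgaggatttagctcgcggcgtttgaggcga
Cdc6: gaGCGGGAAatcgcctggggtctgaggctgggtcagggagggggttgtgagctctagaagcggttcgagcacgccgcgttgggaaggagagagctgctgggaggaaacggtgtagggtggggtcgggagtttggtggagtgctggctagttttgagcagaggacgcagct
Hells was 4.42, 6.22 and 5.64 in bright and 7.26, 7.45 and 7.56 in dim cells, the replication gene with the largest fall shown here (-1.99 ± 0.33, adjusted p = 0.00477). Rrm1 changed by -1.31 (SE 0.19) and Cdc6 by -1.09 (SE 0.19).

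The fall covered most stages of the cycle. Mcm5, a subunit of the replicative helicase, changed by -1.61 (SE 0.22), Mcm10 by -1.26 (SE 0.17), Rrm2, the small reductase subunit, by -1.47 (SE 0.23), and Gins2 by -0.95 (SE 0.14). Among mitotic genes Ccna2, cyclin A, was 7.18, 7.65 and 7.68 in bright and 8.59, 8.98 and 8.83 in dim cells (-1.30 ± 0.17, adjusted p = 0.00147). Mad2l1, of the spindle checkpoint, changed by -1.40 (SE 0.21), Melk, a mitotic kinase, by -1.58 (SE 0.23) and the kinesin Kif20b by -1.52 (SE 0.23). Of the 5 mitosis genes not called, Foxm1, a transcription factor of that phase, differed by -0.56 (adjusted p = 0.0514), and Pttg1 (securin) by 0.34. Among 20 genes that control entry into the cycle only Cdk4 fell (-0.65 ± 0.16), and the inhibitor Cdkn1a differed by -0.13 (adjusted p = 0.831).

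Myc was the 1 called of 11 genes of its family. It read 5.42, 6.02 and 5.93 in bright, 6.94, 7.20 and 7.31 in dim and 7.28, 7.13 and 7.37 in negative cells, 2.57-fold lower in bright than in dim cells (-1.36 ± 0.17, adjusted p = 0.00141). Of 45 genes for ribosome biogenesis, many of them known Myc targets, 12 fell and 0 rose (median -0.53). Dkc1 and Nop56, which modify ribosomal RNA, changed by -1.03 (SE 0.21) and -1.01 (SE 0.22), and Nhp2, of the same kind of complex as Dkc1, by -0.90 (SE 0.18).

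These counts leaned on single libraries. Lgr5Hi array 1 was the lowest array for mitosis genes, with a list mean of 5.54 against 6.25 and 6.29 on the other bright arrays and 7.00 to 7.34 on the dim ones. Without it 42 of the mitosis, 22 of the replication and 4 of the ribosome biogenesis genes were called. Without Lgr5Lo array 2 the counts were 26, 17 and 0, and without Lgr5Lo array 3 they were 28, 9 and 0. In the fit over all 42 arrays they were 22, 7 and 1. No member of these lists rose in any of these fits.

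**Figure D4:**
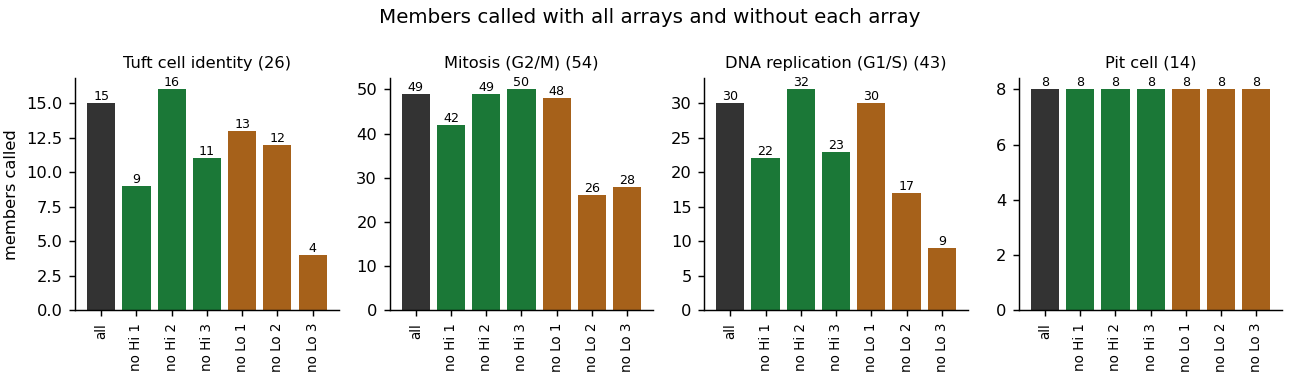
Number of members called (vertical axes, from 0, each with its own range) of 4 gene lists, with all arrays (dark bar) and without each Lgr5Hi (green) or Lgr5Lo (brown) array in turn. Tuft calls run from 4 to 16, mitosis calls from 26 to 50 and replication calls from 9 to 32, while the pit cell count is 8 each time.

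Pit cell genes showed the largest differences. Of 14 listed, 8 fell and 0 rose, with a median of -2.18, and 8 were called without each of the 6 arrays in turn. In 1 fit over all 42 arrays of the series 1 was called, and Gkn1, Muc5ac, Gkn2 and Tff1 had adjusted p of 0.0661, 0.066, 0.105 and 0.611. Muc5ac, the surface mucin, stood at 4.70, 6.19 and 6.41 in bright, 8.86, 9.50 and 9.79 in dim and 10.93, 10.88 and 10.97 in negative cells. All 3 gates were apart, and dim exceeded bright cells 12.3-fold (-3.62 ± 0.36, adjusted p = 0.000244). Gkn1, a gastrokine, read 8.57, 9.25 and 8.88 in bright, 11.91, 12.16 and 12.30 in dim and 12.83, 12.77 and 12.89 in negative cells, a 9.31-fold difference between the reporter gates (-3.22 ± 0.17, adjusted p = 3.15e-06). Gkn2 changed by -3.13 (SE 0.27) and Tff1, a trefoil peptide of the surface mucus, by -2.01 (SE 0.14). Tff1 remained at 10.29, 10.61 and 10.26 in the bright cells, well above the array medians.

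The lipid gene Sptssb, an activating subunit of serine palmitoyltransferase, had the largest fall of all called genes, from 6.38, 7.15 and 7.78 in dim to 2.75, 3.81 and 3.82 in bright cells (-3.64 ± 0.33). The bright values lie below the array medians, so 12.5-fold may be a lower bound. Mucl3, a mucin-like protein, fell as well, and Psca, a surface antigen of pit cells, changed by -3.25 (SE 0.48) and Anxa10, an annexin, by -2.34 (SE 0.25). Ctse, a protease placed on the same list, was not called and lay between 12.30 and 12.53 in both gates, with a 95% interval of the difference from -0.32 to 0.23.

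Klf4, a transcription factor of differentiated epithelium, fell stepwise in the same manner. It was 6.33, 6.74 and 6.84 in bright, 7.83, 8.81 and 8.80 in dim and 9.43, 9.38 and 9.44 in negative cells (-1.84 ± 0.23, adjusted p = 0.00141). Of 24 transcription factors of gastric and intestinal identity it fell together with Hnf4g (-0.92 ± 0.15), while Gata5 and Ehf rose by 0.77 and 0.54. Krt19, Krt8 and Krt7 fell among 6 simple keratins, Krt19 from 9.28, 9.46 and 9.70 to 7.69, 7.93 and 8.03 (-1.60 ± 0.15, adjusted p = 0.000165). Id1, a target of BMP signalling, which is strongest towards the gland top, changed by -1.19 (SE 0.23), and Smad9 by -0.57, while Bmp7 and Bmpr2 rose by 0.82 and 0.55, the 4 called of 24 BMP genes. Of 22 Notch pathway genes 0 were called, with a median of 0.02.

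Other large falls included enzymes that handle foreign compounds. Gstm3, a glutathione transferase, was 5.66, 6.80 and 6.09 in bright and 8.80, 9.45 and 9.36 in dim cells (-3.02 ± 0.26, adjusted p = 0.000128). Gsta3 changed by -2.79 (SE 0.28) and the cytochrome Cyp2c65 by -2.66 (SE 0.23). Adh7, a retinol-oxidising alcohol dehydrogenase of the stomach surface, changed by -1.75 (SE 0.32) and Aldh3a1 by -1.14 (SE 0.19), whereas Adh1 rose by 0.80 (SE 0.18) and Aldh3a2 by 0.69 (SE 0.16), so 4 of 20 genes of that list were called, as many in each direction. With the mean over probe sets, neither Adh1 nor Aldh3a2 was called. The calcium-binding S100a6 changed by -2.90 (SE 0.38), the galectin Lgals2 by -3.24 (SE 0.36), the annexin Anxa3 by -3.11 (SE 0.27), the secreted Fam3b by -2.74 (SE 0.25) and the membrane protein Emp1 by -2.63 (SE 0.31).

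The acid pump showed another pattern. Atp4b, its beta subunit and a defining marker of parietal cells, was 4.73, 6.79 and 4.27 in bright, 9.18, 8.62 and 8.68 in dim and 5.74, 4.85 and 3.94 in negative cells. The dim arrays stood alone, 11.8-fold above the bright ones (-3.56 ± 0.55, adjusted p = 0.00306) and 3.98 above the negative ones (adjusted p = 0.002). The catalytic subunit Atp4a did the same, at 5.41, 6.90 and 5.61 in bright, 8.93, 8.29 and 8.47 in dim and 5.64, 4.89 and 4.89 in negative cells (-2.59 ± 0.34). Neither pump gene differed between bright and negative cells at the threshold (adjusted p = 0.694 and 0.115). Most other parietal genes were not called. Of 15 listed, Car2, a carbonic anhydrase also found in pit cells, was the only further one that fell (-0.73 ± 0.14). The potassium channel Kcnq1 rose by 0.94 ± 0.15. Its partner Kcne2 differed by -0.40 without a call (adjusted p = 0.103). Kcne2 also peaked in dim cells, at 4.59, 4.64 and 4.53 against 4.17, 4.16 and 4.24 in bright and 4.27, 4.09 and 4.36 in negative cells. Without Lgr5Lo array 3, 2 of the list fell instead of 3, and in the fit over all 42 arrays none was called, with adjusted p of 0.391 for Atp4a and 0.108 for Atp4b. Apoa1, an apolipoprotein on the enterocyte list, also peaked in the dim gate, at 5.96, 6.03 and 5.92 against 4.58, 5.26 and 4.78 in bright and 5.05, 4.31 and 4.38 in negative cells (-1.10 ± 0.21, adjusted p = 0.0105).

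Enteroendocrine genes gave 0 calls among 25, at a list median of -0.09. Gast, the hormone of the antral G cells, was between 12.66 and 12.83 on all 6 arrays, with a 95% interval of the difference from -0.18 to 0.35. These values are near the top of the scale, where the highest value of the table was 13.61. Whether probes this bright still separate levels was not tested, here or for Tff2, Pgc and Ctse. The same holds for Gkn1 and Gkn2 in the IRES line, described below. Ghrl (ghrelin) was 7.54, 10.66 and 10.13 in bright and 10.47, 10.54 and 10.71 in dim cells. Lgr5Hi array 1 alone was low, and the gene was not called (adjusted p = 0.336). Somatostatin (Sst) and peptide YY (Pyy) differed by -1.37 and -1.34 with adjusted p of 0.0819 and 0.0664.

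The difference between bright and dim cells was then compared with that of the equally named gates in the IRES line, in 1 fit over 17 sorted pyloric arrays. In that line 701 genes (3.16%) were called between Lgr5Hi and Lgr5Lo. The difference between the lines was called for 3 genes (0.0135%), Gkn1, Gkn2 and Tff1, each with a larger fall in the DTR line. Gkn1 was 12.15, 11.52, 12.60 and 12.54 in bright and 12.67, 12.55, 12.70 and 12.88 in dim cells of the IRES line, where the groups overlapped. Its fall of 3.22 in the DTR line stood against 0.50 in the IRES line, a difference of differences of -2.72 ± 0.33 (adjusted p = 0.00227). For Gkn2 it was -2.61 ± 0.38 (adjusted p = 0.0166) and for Tff1 -1.67 ± 0.27 (adjusted p = 0.0344). Both IRES gates lay near the top of the scale, at 11.52 to 12.88 for Gkn1 and 11.52 to 12.68 for Gkn2. Whether this narrowed the difference in that line was not tested. Gkn1 was called in all 18 alternatives run. Gkn2 missed the threshold without Lgr5Hi array 3, Lgr5Lo array 2 or Lgr5Lo array 3 of the DTR line, with adjusted p up to 0.119. Tff1 missed it without any of 10 arrays, with adjusted p up to 0.218.

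The other pit genes fell in both lines by their values. All 8 pit genes called in the DTR line had a negative difference in the IRES line, from -0.34 to -1.97, and for Muc5ac it was -1.42 there against -3.62. For that gene the lines did not differ at the threshold (adjusted p = 0.94). Aqp5 rose by 1.82 in the IRES line, Cacna2d1 by 2.18 and Smoc2 by 2.10, each called there. Lgr5, on which the gates of that line were sorted too, rose by 2.02 and is no finding there either. All 49 mitosis genes and all 30 replication genes called in the DTR line were negative in the IRES line too. They ranged there from -0.42 to -1.55 and from -0.28 to -1.29. Called lower in that line were 3 of 14 pit, 20 of 54 mitosis and 6 of 43 replication genes, and 0 were called higher. The share of negative differences over all genes was not counted. Myc differed by -0.29 in the IRES line and was not called (adjusted p = 0.616). Atp4a was 2.53 lower in bright than dim cells there (adjusted p = 0.00063), and Atp4b 2.04 lower. Of the 15 parietal genes 5 were called lower and 1 higher in that line, with Kcne2 at -1.67 (adjusted p = 0.00063).

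In the IRES line 0 of the 26 tuft identity genes were called in either direction, and their median difference was -0.20. Dclk1 was 8.66, 6.78, 4.68 and 6.15 in its bright and 8.29, 8.59, 7.15 and 8.40 in its dim cells. This difference of -1.54 was not called (adjusted p = 0.165). Of the 15 taste transduction genes 1 was called in the IRES line, Gnat3, lower in bright cells (-2.93, adjusted p = 0.00972). In the DTR line Gnat3 differed by 1.09 without a call. Of the 15 tuft genes called in the DTR line 12 had a negative and 3 a positive difference in the IRES line. The difference between the lines was called for 0 of them, the smallest adjusted p being 0.366, so a dependence on the line was not shown in that fit. With a replicate block it was called for Spib (3.75, adjusted p = 0.0391) and for the leukotriene gene Alox5 (3.73, adjusted p = 0.0391), and without Lgr5Lo array 3 of the IRES line for Itprid1, a tuft list member (2.09, adjusted p = 0.0448). Lgr5Hi array 1 of the IRES line stood apart, with a mean tuft level of 6.43 against 5.56, 5.11 and 5.20 on the other bright arrays of that line and 5.50 to 6.22 on the dim ones. Without this array the line difference was called for 14 genes, among them Dclk1 (4.28, adjusted p = 0.0138), Gnat3 (4.76, adjusted p = 0.0068), Sh2d6, Sh2d7 and Spib, these 5 with the higher difference in the DTR line.

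**Figure D5:**
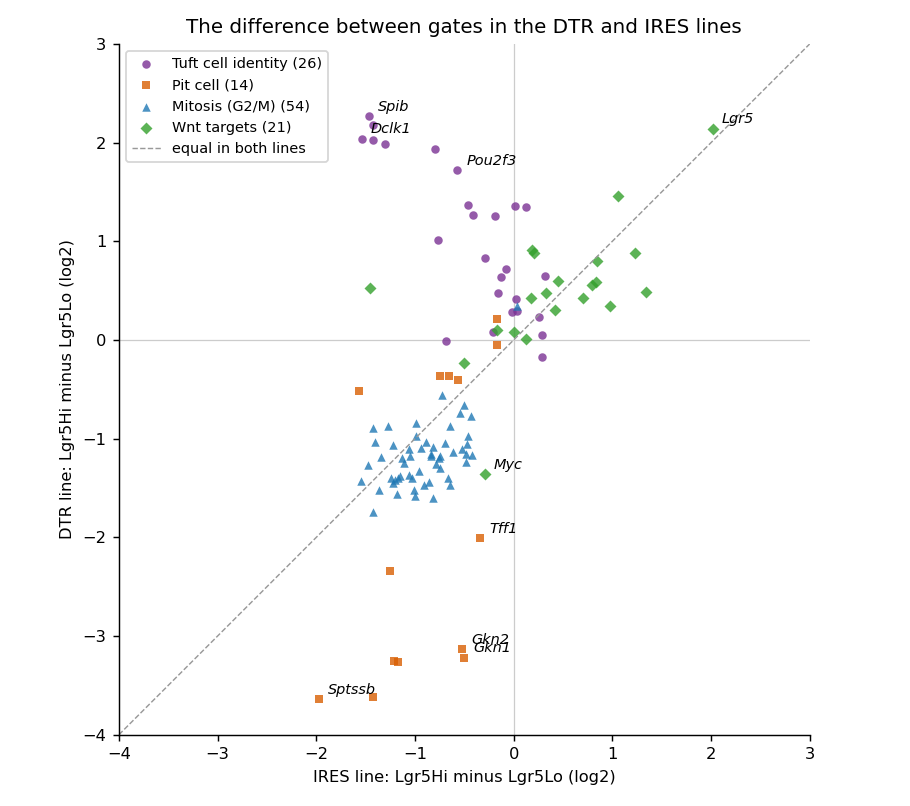
Lgr5Hi minus Lgr5Lo difference (log2) of the members of 4 gene lists in the IRES line (horizontal axis) and in the DTR line (vertical axis); each point is a gene and the dashed line marks equal differences. Most tuft genes lie above the dashed line, many of them at negative IRES values, and Gkn1, Gkn2 and Tff1 lie far below it. The mitosis genes called in the DTR line are negative in both lines.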

How the data were processed

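RNA of sorted pyloric cells was amplified and hybridised to 1-colour Affymetrix arrays, and the authors deposited 1 table of log2 expression values for 41345 probe sets on 42 arrays. Per the submitters' processing notes the tools named were RMA, oligo, limma 3.26.8, R 3.2.3 and Partek, with no role or order given. The deposited values were used without further normalization. Of the probe sets, 23521 had 1 gene symbol in the platform annotation, 1814 several and 16010 none. The probe set with the highest mean over all arrays stood for each of 22180 genes. No detection calls were used, and precision was limited by the 3 arrays a group. The labels call the samples biological replicates.

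Differences were tested with limma 3.58.1 in R 4.3.3 (lmFit and eBayes) over the 9 DTR arrays with 1 mean per gate. The difference between the lines came from a fit over 17 arrays. P-values were adjusted by Benjamini-Hochberg over all 22180 genes. The code was tested on simulated data. Genes were named mainly by rule. Lgr5, Dclk1, Gkn1 and Aqp5 came in any case, then the 15 strongest rises and the 15 strongest falls with separate groups. At most 8 genes per list in order of p followed, and members called against most of their list. Some other list members, among them Mki67 and Gfi1b, were named outside this rule. Cdc6 was named for its E2F match. Uncalled members are given by value only. The comparison and the lists were chosen with earlier results of these data known. Promoters came from RefSeq on GRCm38.p6, and 16990 genes had one. Alternatives changed the arrays in the fit, a replicate block, array weights, a trended and robust fit, normalization, centring, a filter on dim genes and the summary over probe sets, and left out each array in turn.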

Additional observations from a re-analysis of the deposited data

Results flagged for a closer look

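The bright minus dim difference itself differed between the reporter lines for 3 genes by the interaction term in limma. It was -2.72 for Gkn1 (adjusted p = 0.00227), -2.61 for Gkn2 (adjusted p = 0.0166) and -1.67 for Tff1 (adjusted p = 0.0344), the difference in the DTR line minus that in the IRES line. Gkn1 and Gkn2 were near the top of the scale in both IRES gates, and whether this narrowed their difference there was not tested.

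For Atp4b, 1 of the 4 Lgr5Lo arrays of the IRES line lay apart from the other 3, at 10.36 against 11.21, 11.29 and 11.18. Among 28 groups of 4 arrays looked at, chance sets such an array apart in about 1 in 20.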

How the results depend on the processing

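The count of 1102 called genes became 714 in a fit of the 6 arrays alone, 132 in 1 fit over all 42 arrays and 1692 with dim genes left out, where 9540 genes were tested. It ranged from 325 to 1036 without 1 array. The fit over all arrays called 30 higher and 102 lower, so the share of higher calls went from 40.7% to 22.7%; the cause was not tested. Of the 1102, 699 were called with the 6 arrays and 323 without Lgr5Lo array 3, and none reversed in any of the 15 alternatives. Of 202 called genes followed singly, 42 were called in all of them. With a replicate block 1212 genes were called. Arrays with equal replicate numbers correlated at 0.15, 0.05 and -0.07, and those with unequal numbers at -0.17 to 0.15. These are deviations from means of 3 arrays, which are too few to exclude a pairing. The line difference gave 6 genes with the replicate block and 1 to 14 without 1 array. Uncalled genes changed sign: under quantile normalization Avil was 0.03, Ctse 0.03, Pgc 0.00 and Tff2 -0.04, and with array weights Chia1 was 0.57. Without 1 array Avil ran from -0.15 to 0.16, Cdkn1a from -0.27 to 0.02, Chat from -0.19 to 0.18, Chia1 from -2.11 to 0.89 and Ctse from -0.10 to 0.01. With 3 arrays a group and no detection calls, small differences and differences of dim genes were not resolved.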

Other observations

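Genes better known from the intestine moved in both directions between the gates. Of 12 enterocyte genes 2 rose and 3 fell. The fatty acid binding protein Fabp2 changed by -2.42 and the retinol binding protein Rbp2 by -0.89, while the peptidase Anpep and the apolipoprotein gene Apob differed by 1.11 and 0.68. Of 11 goblet and Paneth cell genes 1 rose and 3 fell. Clca1, a secreted protease of mucus, changed by -2.13, Spink4 by -1.68 and Fcgbp, a mucus protein, by -0.95, with the lectin Itln1 at 1.18.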
